A study of Mus musculus with 2 samples.

Results

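The 7 microRNA genes described here, Mir142b, Mir223, Mir342, Mir146, Mir155, Mir150 and Mir146b, stand for microRNAs known from white blood cells. They were chosen by name, not by measured level, but with earlier results of these data known. They are 7 of the 1973 microRNA genes in the count tables of whole mouse fetal liver. The tissue came from embryos of strain B6NCrl at embryonic day 14.5, and there was 1 group of 2 libraries, called replicate 1 and replicate 2, with no treatment and no comparison group. The labels call them biological replicates with separate collection days, but describe a single liver beside a pooled sex and give 1 donor ID to both. Whether they are independent animals is therefore uncertain, and any spread given here is that between these 2 libraries. Mir142b is a special case: it is annotated on the strand opposite to Mir142, the blood microRNA, and its opposite-strand counts are used as the reading of Mir142.

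At this stage the fetal liver is the main organ of blood formation, and its red cell precursors, young white cells and stem cells lie among immature liver cells. A microRNA is cut from a hairpin precursor and guides its protein partners to messenger RNAs that pair with its seed, the stretch from base 2 to base 8. miR-142 is made by nearly all blood lineages and miR-223 by granulocytes and monocytes. In mice, miR-150 is typical of mature lymphocytes and restrains the transcription factor Myb. miR-155 comes from the host transcript Mir155hg and is induced in activated lymphocytes and macrophages. miR-146a, the product of Mir146, is induced by NF-kappa-B and restrains the signalling proteins Traf6 and Irak1. miR-342 lies in the gene of the actin regulator Evl and rises when human promyelocytic leukaemia cells are driven to granulocytes.

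The mature sequences below are those on which the description turns, copied from RefSeq (GRCm38.p6), with the seed in capitals. RefSeq held at least 1 mature product for 7 of the 7 genes and a hairpin for 6, all but Mir150. Those of miR-142 show how both strands of its locus resemble each other, those of miR-223, miR-342 and miR-155 have seeds of their own, and the last pair shows the shared seed of the Mir146 genes.
mmu-miR-142a-5p: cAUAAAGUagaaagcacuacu
mmu-miR-142a-3p: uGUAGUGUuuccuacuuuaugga
mmu-miR-142b: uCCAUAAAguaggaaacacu
mmu-miR-223-3p: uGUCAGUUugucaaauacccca
mmu-miR-342-3p: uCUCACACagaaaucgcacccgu
mmu-miR-155-5p: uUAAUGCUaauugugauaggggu
mmu-miR-146a-5p: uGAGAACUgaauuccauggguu
mmu-miR-146b-5p: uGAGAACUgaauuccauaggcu
Among the 1679 mature microRNAs of the RefSeq table, miR-146a-5p and miR-146b-5p shared a seed with each other and with no other microRNA. For each of the other sequences printed here, no second microRNA had the same seed. Counting from 1 at the 5′ end of miR-146a-5p, the pair differed by G18A and U21C and were identical at 20 of 22 bases. The Mir146 and Mir146b hairpins also shared a stretch of 20 bases, so a read cut short before base 18 can come from either gene. Mir223, Mir342 and Mir155 shared no such stretch with any other hairpin in the table. The counts are per gene, so the 5p and 3p products of a hairpin are not told apart.

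The members lie at separate loci of build GRCm38 (mm10). Mir142b is on the minus strand of chromosome 11 from 87756841 to 87756955. The plus-strand Mir142 hairpin lies inside it from 87756864 to 87756927, and both lie within an intron of the plus-strand transcript Mir142hg. Mir223 is on chromosome X from 96242817 to 96242926, in an exon of the noncoding transcript F630028O10Rik. Mir342 is on chromosome 12 from 108658620 to 108658718, in an intron of Evl. Mir155 is on chromosome 16 from 84714140 to 84714204, in an exon of Mir155hg, and Mir146b is on chromosome 19 from 46342762 to 46342870, in an intron of Mfsd13a. Mir146 (chromosome 11 from 43374397 to 43374461, minus strand) and Mir150 (chromosome 7 from 45121757 to 45121821) overlapped no other annotated gene. No member had another microRNA gene of the tables within 63 kb. The nearest neighbour of Mir342 with at least 10 counts in each library was Mir345, 178 kb away, with 80.7 and 84.3 CPM in replicates 1 and 2. CPM is the usual depth-scaled count, here relative to all counts on the genes' own strand. These numbered 2353946 in replicate 1 and 3132763 in replicate 2.

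Nearly all reads at the Mir142 locus came from the strand of Mir142. Mir142b had 126731 opposite-strand counts and 1 count on its own strand in replicate 1, and 180061 and 1 in replicate 2. The opposite strand thus held 99.9992% and 99.9994% of its counts. miR-142b overlaps miR-142a-3p by 20 bases on the other strand, and the hairpins of both strands are similar in sequence. A script that slid each mature sequence along the other strand's hairpin found at best 3 mismatches in 21 bases for miR-142a-5p, 4 in 23 for miR-142a-3p and 3 in 20 for miR-142b. The other 6 members showed the reverse pattern. Mir150 had 2 opposite-strand counts in replicate 1 and 0 in replicate 2, and the remaining 5 had 0 in both. Among 345 genes with at least 10 counts on either strand in each library, 315 (91.3%) had at most 1% of them on the opposite strand in both libraries, and 11 had over 50%. Mir142b alone held 50.7% and 50.3% of all opposite-strand counts in the tables.

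The levels of the members ranged from rank 3 to rank 428 among the 1973 genes. In replicate 1 Mir142b reached 53838 CPM, and in replicate 2 it reached 57477 CPM (mean 55657 ± 2573, SD, n = 2). This was rank 3 in each library when its opposite-strand counts stand for Mir142. Mir223 had 10498 CPM in replicate 1 (95% Clopper-Pearson interval 10368 to 10629) and 9885 CPM in replicate 2 (9776 to 9995). It took rank 31 in each library. Both therefore stood among the abundant microRNAs of the organ, and together they made up 97.5% of the members' counts in replicate 1 and 97.6% in replicate 2. Mir342 followed with 1404 CPM (rank 86) in replicate 1 and 1378 CPM (rank 85) in replicate 2.

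**Figure D1:**
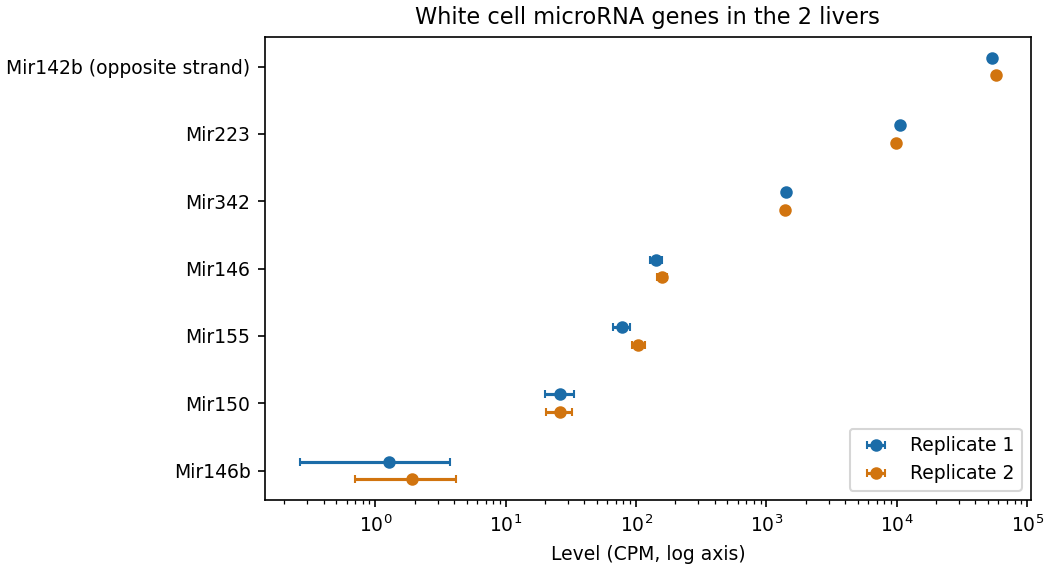
Level of each of the 7 white cell microRNA genes (CPM, log axis) in replicate 1 and replicate 2, with 95% Clopper-Pearson intervals for counting error (for Mir142b, relative to totals that do not hold its opposite-strand counts). The genes fall into steps from a mean of 55657 CPM for Mir142b to one of 1.59 CPM for Mir146b, and the points of the 2 livers lie close together at each step.

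Mir146, Mir155, Mir150 and Mir146b were far lower than these. Mir146, whose product is induced by NF-kappa-B, had 333 counts (141.5 CPM) in replicate 1 and 496 counts (158.3 CPM) in replicate 2. Mir155 had 183 counts (77.7 CPM, interval 66.9 to 89.9) in replicate 1 and 326 counts (104.1 CPM, 93.1 to 116.0) in replicate 2, and the 2 intervals do not overlap. The lymphocyte microRNA Mir150 had 61 counts (25.9 CPM, 19.8 to 33.3) and 81 counts (25.9 CPM, 20.5 to 32.1). Mir146b was the lowest, with 3 counts (1.27 CPM, 0.263 to 3.72) in replicate 1 and 6 counts (1.92 CPM, 0.703 to 4.17) in replicate 2. The limit that 0 counts would set is 3 counts, which equals 1.27 CPM in the first library and 0.958 CPM in the second, so Mir146b was at the limit of this depth in replicate 1. These 4 genes together held 580 of the members' 155327 counts in replicate 1 (0.373%) and 909 of 216255 in replicate 2 (0.420%). Intervals and limits cover counting error only, since PCR copies are not independent molecules.

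**Figure D2:**
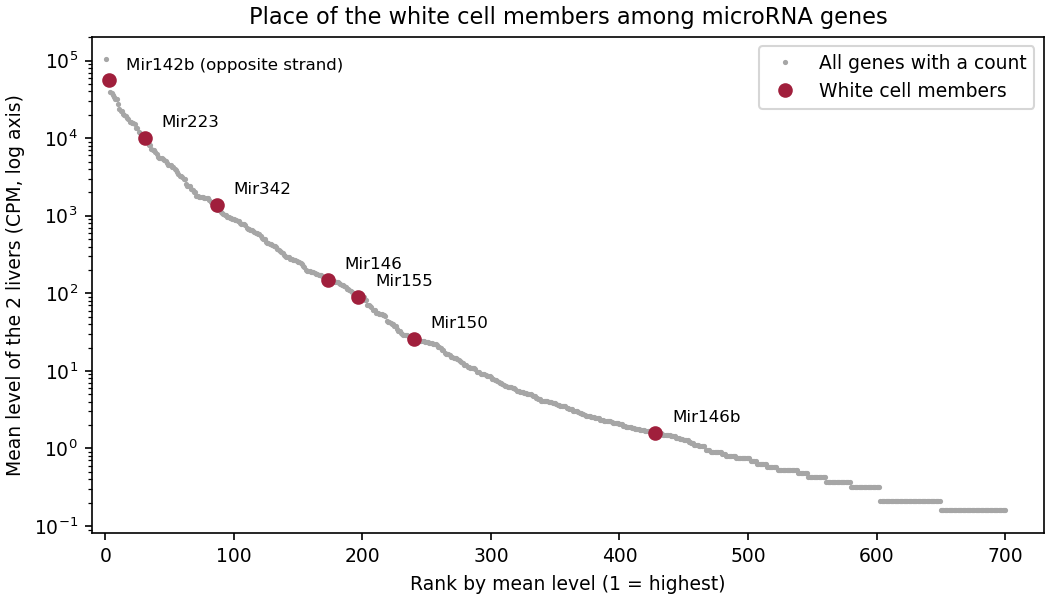
Mean level of the 2 livers (CPM, log axis) against rank for all microRNA genes with a count (grey) and the 7 members (red). Mir142b stands at rank 3, Mir223 at 31, Mir342 at 87, Mir146 at 173, Mir155 at 197, Mir150 at 240 and Mir146b at 428.

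The order Mir142b, Mir223, Mir342, Mir146, Mir155, Mir150, Mir146b was the same in both livers. At none of the 6 steps did the ranges of neighbouring genes over the 2 livers overlap. Mir142b was 5.13-fold above Mir223 in replicate 1 and 5.81-fold in replicate 2. Mir223 was 7.48-fold and 7.17-fold above Mir342, and Mir342 was 9.92-fold and 8.70-fold above Mir146. The smallest step was that from Mir146 to Mir155, with 1.82-fold in replicate 1 and 1.52-fold in replicate 2, whose lowest and highest values (141.5 and 104.1 CPM) lay close. In reads, the granulocyte and monocyte microRNA Mir223 exceeded the lymphocyte microRNA Mir150 405-fold in replicate 1 and 382-fold in replicate 2. Whether the libraries captured different microRNAs equally well was not tested, so folds between genes are not ratios of molecules or of cells. Mir146 exceeded Mir146b 111-fold and 82.7-fold, ratios that rest on 3 and 6 counts of Mir146b. A level per microRNA counts reads of products of nearly equal length and was not divided by length. Per 100 bases of annotated hairpin (65 to 115 bases) the 7 genes kept the same places, with 46815 and 49980 CPM for Mir142b and 9543 and 8987 CPM for Mir223.

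By level in both livers, on the log2(CPM + 1) scale, the gene nearest to Mir142b was Mir126a, a microRNA of vessel-lining cells and megakaryocytes. Its levels were 61517 CPM (replicate 1) and 57654 CPM (replicate 2). The ratio of Mir142b to Mir126a was 0.875 in replicate 1 (95% exact interval 0.869 to 0.882) and 0.997 in replicate 2 (0.990 to 1.00). The next were Mir411 and Mir26b. Nearest to Mir223 were Mir106b, the red cell microRNA Mir144 and Mir369, and nearest to Mir342 were Mir3071, Mir16-2 and Mir323. This likeness covers 2 libraries only and says that the levels were close.

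Between the 2 livers, the ratio farthest from 1 among the 6 members tested was that of Mir155. It was lower in replicate 1, at 0.747 of its level in replicate 2 (95% exact interval 0.620 to 0.898, log2 ratio -0.42). The abundant Mir142b and Mir223 differed by a few percent in opposite directions. Mir142b was at 0.937 in replicate 1 relative to replicate 2 (0.930 to 0.943, log2 ratio -0.09). Mir223 was 1.06-fold higher in replicate 1 (1.04 to 1.08, log2 ratio 0.09). The difference passed a two-sided exact binomial test of the counts of these 2 libraries, with Benjamini-Hochberg adjustment over all genes tested, for Mir155 (adjusted p = 0.00465), Mir142b (adjusted p = 4.79e-70) and Mir223 (adjusted p = 1.32e-11). This test compares the libraries and not conditions, and at such counts it passes very small ratios.

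The other members did not pass the exact binomial test, with an adjusted p of 0.570 for Mir342, 0.207 for Mir146 and 1 for Mir150. Mir342 had a ratio of replicate 1 over replicate 2 of 1.02 (0.973 to 1.07) and Mir146 one of 0.893 (0.775 to 1.03). Mir150 had a ratio of 1.00, but its interval of 0.707 to 1.41 allows a difference of 1.41-fold. The ratio of Mir146b, 0.665, had an interval of 0.108 to 3.12, and this gene was below the minimum of 10 counts in each library and was not tested. So 3 of the 6 members tested passed, beside 42.0% of the 333 genes tested. By direction, 1 member was higher in replicate 1, where the share of all genes was 18.3%, and 2 were higher in replicate 2, where it was 23.7%. None of the 6 differed by over 1.5-fold, beside 11.7% of all genes tested, and 6 genes are too few to tell these shares apart. By an unadjusted p under 0.05, 3 members passed as well, beside 161 of the 333 genes tested (48.3%). Their median log2 ratio was -0.04, beside -0.03 over all genes tested.

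**Figure D3:**
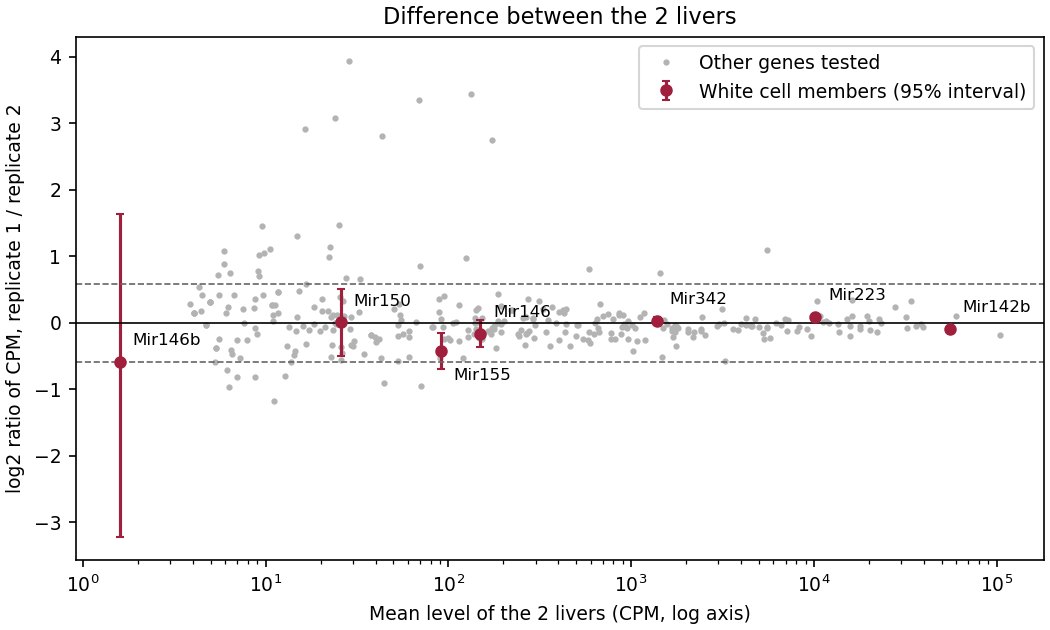
Ratio of replicate 1 over replicate 2 (log2, vertical) against the mean level (CPM, log axis) for the members (red, with 95% exact binomial intervals) and the other genes tested (grey). Dashed lines mark 1.5-fold, and the 6 members tested lie between them, while Mir146b, with 3 and 6 counts, has an interval from 0.108 to 3.12.

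Because the members Mir142b and Mir223 moved in opposite directions, their balance differed between the livers. The ratio of Mir142b to Mir223 within a library was 5.13 in replicate 1 (95% exact interval 5.06 to 5.20) and 5.81 in replicate 2 (5.74 to 5.89). The 2 intervals do not overlap, but they cover counting error and not the spread between animals. The ratio of Mir155 to Mir146 was 0.550 in replicate 1 (0.456 to 0.660) and 0.657 in replicate 2 (0.570 to 0.757), and these intervals overlap.

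Summed over the 7 genes, the white cell members reached 65986 CPM in the first library and 69030 CPM in the second, with a mean of 67508 ± 2153 CPM (SD, n = 2). Without Mir142b the remaining 6 had 12148 and 11553 CPM, of which Mir223 was 86.4% and 85.6%. The members' sum exceeded that of 6 measured erythroid genes, led by Mir451a and Mir144, which was 50574 CPM in the first library and 40510 CPM in the second. The members' sum was thus 1.30 times the erythroid sum in replicate 1 and 1.70 times in replicate 2. This rests on Mir142b, which held 81.6% of the members' counts in replicate 1 and 83.3% in replicate 2. Nearly all blood lineages make miR-142, so its reads cannot be credited to white cells alone. The remaining 6 members together lay below the erythroid sum in both libraries. For the leading genes, the ratio of Mir142b to Mir451a was 1.42 in replicate 1 (95% exact interval 1.40 to 1.43) and 1.90 in replicate 2 (1.89 to 1.92). In whole tissue, fewer cells of a type and less RNA per cell cannot be told apart, so these ratios are not ratios of cells. Reads mapping to several places (34.0% in replicate 1 and 33.1% in replicate 2) are in none of the list sums given here. How far each list lost reads in this way was not tested.

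Markers of other cell types also differed between the livers. The erythroid sum was 1.25-fold higher in replicate 1 (1.24 to 1.26). Mir451a and Mir144 made up 75.2% and 22.9% of it in replicate 1. By the exact test, Mir451a, Mir144 and Mir182 of the 6 erythroid genes were higher in replicate 1, beside 18.3% of all genes tested. Mir486 was lower there, at 0.785 (0.724 to 0.851), beside 23.7% of all genes in that direction, and Mir183 and Mir96 did not pass. The hepatocyte sum, led by Mir122 and Mir192, was at 0.887 in replicate 1 (0.882 to 0.891). The members' sum was at 0.956 in replicate 1 (0.950 to 0.962). Whether the mix of cell types plays a part in the differences of single members was not tested. The hepatocyte genes summed to 105667 CPM (replicate 1) and 119139 CPM (replicate 2), and those of endothelial cells and megakaryocytes, led by Mir126a and Mir99b, had 68771 and 64872 CPM. The mesenchymal genes, led by Mir143 and Mir214, had 17963 and 17088 CPM. The defining genes of liver and red cells, Mir122 and Mir451a, stood at ranks 1 and 7.

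**Figure D4:**
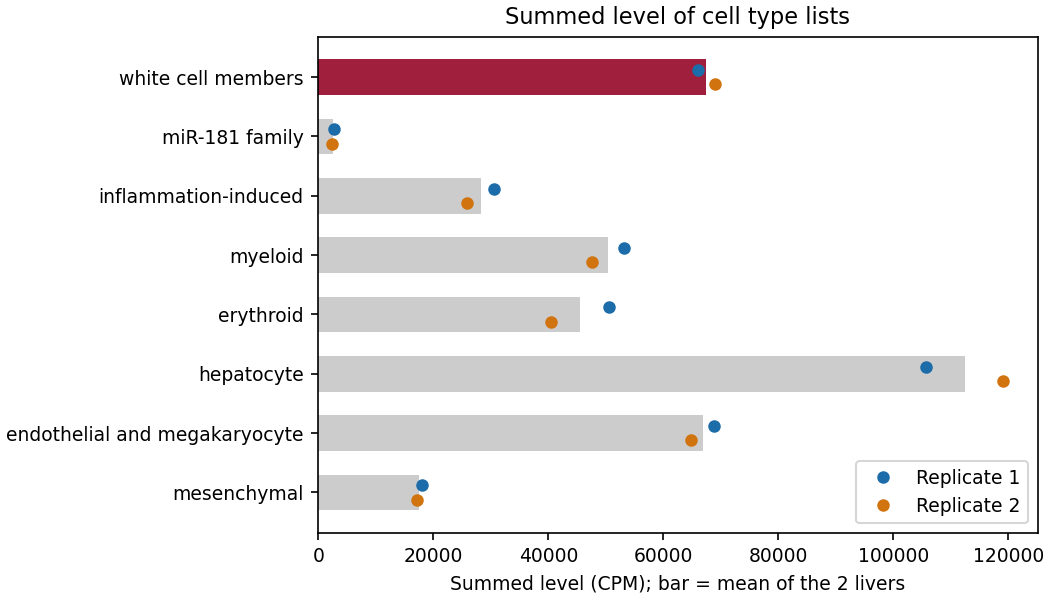
Summed level (CPM) of the white cell members (red bar, mean of the 2 livers) and of other cell type lists (grey bars), with points for replicate 1 and replicate 2. The members' sum of 67508 CPM lies between the erythroid sum of 45542 CPM and the hepatocyte sum of 112403 CPM. Most of it is Mir142b, and nearly all blood lineages make miR-142. The endothelial and megakaryocyte sum of 66822 CPM is close to the members' sum, and in replicate 1 was above it. Mir155, Mir146, Mir146b, Mir223 and Mir21a each stand in more than one list.

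Further genes known from white cells were described beside the members. In the miR-181 family, which is strong in lymphocyte precursors of the thymus and bone marrow, all 6 genes were measured, summing to 2670 and 2413 CPM in replicates 1 and 2. Its highest genes were Mir181c (1238 and 1120 CPM) and Mir181d (785.1 and 715.3 CPM), both above Mir146, Mir155 and Mir150. By the exact test 3 of the 6 (Mir181a-1, Mir181c and Mir181d) were higher in replicate 1, beside 18.3% of all genes tested, and no member was higher in replicate 2, beside 23.7%. The median log2 ratio was 0.14 beside -0.03 over all genes tested. Family members share sequence, and reads that fit more than 1 place were not counted, so these levels are lower limits. The reads lost in this way can differ from gene to gene, so the order of the 6 genes cannot be read from these levels.

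In a list of microRNAs induced by inflammation, 6 of 7 genes were tested. Mir21a, which many cell types make, held 98.9% of the list's counts in replicate 1 and 98.6% in replicate 2, and Mir146 came second. Of the 6, 3 were higher in replicate 1 (Mir21a, Mir132 and Mir212) and 1, Mir155, was higher in replicate 2, beside 18.3% and 23.7% of all genes tested in these directions. In the myeloid list Mir21a (30177 and 25583 CPM) and Mir23a (11724 and 11520 CPM) stood above Mir223. All 5 genes of that list had a ratio above 1, as did 42.6% of the 333 genes tested. Of the 5, 4 passed the test, beside 18.3% of all genes tested that were higher in replicate 1, and Mir23a, at 1.02 (1.00 to 1.03, adjusted p = 0.0638), did not. The list holds the miR-23a cluster and Mir223, itself a member, so the 5 genes are not separate observations. These genes are not restricted to white cells, and their levels give no measure of white cells in this organ. The shares of all genes set beside the lists are not matched for counts. With a minimum of 100 counts, which each of the 5 myeloid genes exceeds, the share called in either direction was 60.6%, against 42.0%.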

How the data were processed

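MicroRNA libraries of RNA under 30 nucleotides were described from 2 deposited tables of raw counts per gene, regardless of strand, on the gene's strand and on the opposite strand. Per the notes deposited with the files, the authors used assembly mm10 and annotation M4 and made each table from its own alignment. The aligner and counter were not given in the sources used here. Rows naming no gene were left out. These were unmapped reads (18.6% and 17.7% of 6395680 and 8068090 reads) and reads mapping to several places (34.0% and 33.1%). Reads on no gene's own strand (10.6% and 10.4%) were left out too. That last group also holds reads on a gene's opposite strand, which for Mir142b were taken from its own row. Symbols came from GENCODE M21, which matched 1894 of 1973 IDs.

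Own-strand counts were scaled to CPM by their totals. Mir142b was read on the opposite strand and scaled by the same totals, which do not hold it. An exact binomial test (scipy 1.17.1) compared the libraries for each gene that reached 10 counts in both, at an adjusted p of 0.05. A model with dispersion could not be used with 1 library a side. Log2 ratios add 0.5 counts, while fold ratios add none. The test and the ratio intervals were run on simulated counts that varied by counting error only, which the test assumes. That run does not cover variation between real libraries. Scaling alternatives used edgeR 4.0.16 and DESeq2 1.42.0. The members, lists and tests were chosen with earlier results of these data known. Named are all members, the 3 genes nearest in level to Mir142b, Mir223 and Mir342, and the 2 highest genes of each list. Other genes were named after their values were seen. Mir486b, Mir885 and Mir126b were not analysed here.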

Additional observations from a re-analysis of the deposited data

How the results depend on the processing

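Mir142b, Mir223 and Mir155 passed the exact test with a minimum of 1 or 100 counts, with edgeR TMM or DESeq2 scaling and with counts regardless of strand. The share of all genes called ranged from 26.2% (minimum of 1 count) to 60.6% (minimum of 100 counts). With a minimum of 1 count, 1 member, Mir146b, was over 1.5-fold, on 3 and 6 counts. The 7 members kept their places in the order with either replicate left out, by both other totals, regardless of strand and per 100 bases. The summed level depended on the denominator: it was 60803 CPM regardless of strand, 75348 CPM with totals without Mir122, the highest gene, 63947 CPM with Mir142b added to the totals and 11851 CPM without Mir142b. With 1 replicate left out it was 65986 or 69030 CPM. Mir155 had an adjusted p of 0.0106 by TMM, and 0.00282 to 0.0107 over its alternatives. The log2 ratio of Mir150, which never passed, was -0.01 with totals without Mir122, against 0.01, and that of the untested Mir146b was 0.11 with a pseudocount of 10 counts, against -0.48. Depth limited Mir146b and Mir150. No paired analysis was possible because there is 1 group.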
